A study of Mus musculus with 6 samples.

Results

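Only part of the expression table was analysed. The extracellular matrix genes described here were taken from that part by its annotation columns. They were every gene placed there in the KEGG pathway of extracellular matrix and receptor interaction or under the GO term for extracellular matrix organization. Genes that KEGG also lists under cytokine receptors, insulin signaling or the cell cycle were set aside, as were 6 genes by name. In the part analysed, these rules took out *Cd36* and *Tnf*. This left 68 of the 4864 genes analysed, 27 through KEGG and 45 through GO, with 4 in both. They were sorted by gene product into 8 collagens, 5 laminins, 9 integrins, 13 matrix enzymes, 16 structural glycoproteins, 3 proteoglycans, 3 other receptors and 11 other members, mostly enzymes and regulators that act inside the cell. A mean of at least 0.5 FPKM, the read count per gene length and per library total, was reached by 50 of them and by 3705 of all genes. Other matrix genes, such as *Col3a1* and *Fn1*, were not analysed here.

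The cells were adipose-derived stem cells (ADSCs), the precursor cells that give rise to fat cells, labelled as wild type and from subcutaneous fat. The study's methods take them from white fat of male C57BL/6J mice and drive them to adipocytes with dexamethasone, insulin, isobutylmethylxanthine, indomethacin and triiodothyronine. There were 3 control libraries of differentiated cells and 3 libraries of cells differentiated with NJT-2, the plant terpenoid saikosaponin A, which the study introduces as a ligand of PPARγ, the nuclear receptor at the centre of fat cell formation. The labels give neither the concentration nor the time of harvest of the sequenced cultures, and they do not say whether the libraries came from separate cultures or animals, so the p-values below measure the spread between these libraries.

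The extracellular matrix is the protein mesh around cells. Fibrillar collagens give it strength, beaded collagen VI filaments lie close around fat cells, and laminins with nidogen form the basement membrane that each mature adipocyte builds around itself. Integrins and syndecans at the cell surface hold on to these proteins, and matrix metalloproteinases (MMPs) and ADAMTS proteases cut them. Preadipocytes in culture sit in a fibroblast-type matrix, which is remodelled when they round up and store lipid.

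The labelled cell state was compared with marker genes, of which only those in the table part analysed could be read. These were 6 of 11 listed adipocyte, 5 of 11 fibroblast and preadipocyte and 5 of 10 macrophage markers. Of the other lists, 2 of 8 mural, 3 of 8 endothelial and 2 of 5 mesothelial markers were read. Of the adipocyte markers read, 6 of 6 were higher with NJT-2 and 5 passed the test. Their summed level was 19.9 to 23.8 FPKM in control and 374 to 1147 FPKM in NJT-2 libraries. *Adipoq*, which encodes the fat cell hormone adiponectin, stood at 0.38 to 0.50 FPKM in the control libraries, so a defining adipocyte marker was near 0 there. The 5 fibroblast and preadipocyte markers comprised 4 with negative values, 1 of them called lower (*Pi16*), and 1 with a positive value (*Fap*). They summed to 268 to 1321 FPKM in control and 74.6 to 101 FPKM in NJT-2 libraries, and *S100a4* alone made up 164.77 to 1240.82 FPKM of the control sums. The 2 mural markers summed to 11.3 to 13.8 and 2.72 to 4.04 FPKM. The 5 macrophage markers summed to 9.67 to 12.8 and 31.5 to 57.3 FPKM, a difference mainly from *Adgre1* and *Cd68*. *Csf1r* was similar in both groups, at 2.52 to 3.69 FPKM in control and 3.05 to 4.56 FPKM with NJT-2, and *Cd163* and *Aif1* were below 0.5 FPKM. The 3 endothelial markers, which include the matrix gene *Vwf*, stayed at 0.45 to 2.46 FPKM in all libraries. The sums of these lists, except the endothelial one, did not overlap between the groups, and their part in the matrix results was not tested. In RNA from whole cultures, fewer cells of a type and less RNA per cell cannot be told apart.

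A pair of libraries stood apart. Counts on the analysed genes ranged from 16093037 to 28929673 per library. Control replicate 1 had the smallest total, and matrix genes took 0.660% of its implied library total against 1.18% to 1.62% in the other 5 libraries. It was the lowest control library for 35 of the 50 matrix genes tested (70.0%), beside 66.15% of all genes tested. NJT-2 replicate 2 lay above replicates 1 and 3 for 22 matrix genes and below them for 27, and was more than 2-fold from their mean for 23. Replicates 1 and 3 were more than 2-fold apart for 0 of the 50. The shares of all genes were not worked out for these counts, so they are no result about the matrix genes. Over all genes tested, the chi-square per gene between NJT-2 replicate 2 and replicates 1 and 3 was 1490 and 1300. Between replicates 1 and 3 it was 56.6. In NJT-2 replicate 2 the 2 mesothelial markers summed to 88.6 FPKM, 87.95 of it from the keratin gene *Krt19*, against 0.58 to 3.47 FPKM in the other libraries. Results are therefore also given without control replicate 1 and NJT-2 replicate 2, which leaves 2 libraries a group and rests on a choice made from these values.

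Across the 50 matrix genes tested, no common direction was seen. With NJT-2, 26 had a positive and 24 a negative log2 fold change, with a median of 0.21 beside 0.02 over all genes tested. The edgeR quasi-likelihood test called 1 matrix gene at an adjusted p under 0.05 and a log2 fold change beyond 1, the oxidoreductase gene *Ero1l*, which rose. It called 0.702% of all genes. At an unadjusted p under 0.05, 11 matrix genes were higher (22.0%, beside 8.04% of all genes) and 7 were lower (14.0%, beside 9.72%). DESeq2, the tool named in the study, called 7 higher (14.0%, beside 4.4% of all genes) and 5 lower (10%, beside 3.4%). The FPKM values of the groups did not overlap for 10 matrix genes that were higher (20.0%, beside 14.4%) and 7 that were lower (14.0%, beside 11.5%).

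With control replicate 1 and NJT-2 replicate 2 left out, edgeR called 9 matrix genes higher and 11 lower, beside 6.88% of all genes higher and 6.13% lower. With voom quality weights, which give less weight to libraries that fit poorly, 13 were called higher and 12 lower, beside 10.6% and 9.04% of all genes. The 12 genes called by DESeq2 were among those called under each of these settings. They comprised *Col6a1*, *Itga7*, *Mmp11*, *Mmp28*, *Ccdc80*, *Vtn* and *Ero1l* on the higher side and *Lama5*, *Itgb5*, *Mmp8*, *Sdc1* and *Gfod2* on the lower side.

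**Figure D1:**
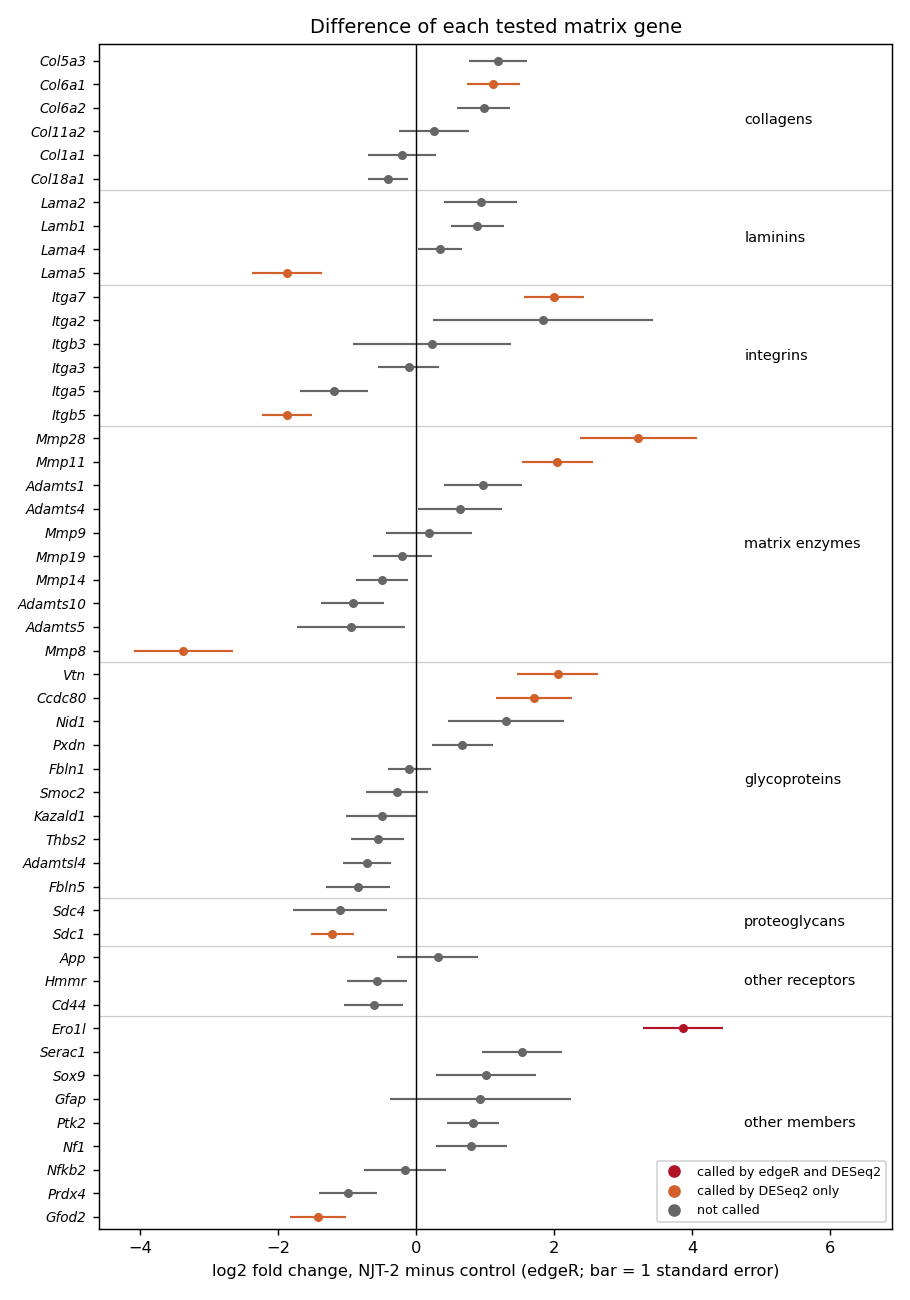
Log2 fold change of NJT-2 minus control from edgeR for the 50 matrix genes tested, grouped by class, with bars of 1 standard error. *Ero1l* is the 1 gene called by edgeR and DESeq2, a further 11 were called by DESeq2 alone, and genes to the right and to the left of 0 occur in every class except the proteoglycans.

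The collagens include *Col1a1*, which had the highest level of the matrix genes in the control libraries on average, and *Col6a1* of the collagen VI filament was the collagen that DESeq2 called, higher with NJT-2. Of the 6 tested, 4 had positive values, and the median log2 fold change was 0.61, beside 0.02 over all genes. edgeR called 0 (beside 0.702% of all genes), while 3 were higher (beside 8.04%) and 0 lower (beside 9.72%) at an unadjusted p under 0.05, and DESeq2 called 1 higher (beside 4.4%) and 0 lower (beside 3.4%). These shares of all genes are also the measure for the counts in the classes that follow.

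*Col6a1* and *Col6a2* encode chains of collagen VI and lie next to each other on chromosome 10, on the minus strand and 85162 bases apart (*Col6a1*, GRCm38 chr10:76708792-76726168, and *Col6a2*, chr10:76595762-76623630). *Col6a1* was at 71.58, 130.80 and 161.17 FPKM in control and at 352.23, 165.49 and 344.16 FPKM in NJT-2 replicates 1 to 3. The groups did not overlap, although NJT-2 replicate 2 lay just above the highest control library. For *Col6a1* the log2 fold change was 1.11 ± 0.38 (SE), with an adjusted p of 0.220 from edgeR and 0.0458 from DESeq2. *Col6a2* was at 27.29, 43.03 and 50.20 FPKM in control and at 111.03, 47.52 and 105.29 FPKM with NJT-2. Here NJT-2 replicate 2 fell inside the control range, and the log2 fold change of 0.97 ± 0.38 (SE) had an adjusted p of 0.258 (edgeR). Without control replicate 1 and NJT-2 replicate 2, the values were 1.25 for *Col6a1* (adjusted p = 0.0168, edgeR) and 1.21 for *Col6a2* (adjusted p = 0.0144, edgeR). The chains kept nearly the same proportion throughout, as the FPKM ratio of *Col6a1* to *Col6a2* was 2.62, 3.04 and 3.21 in control and 3.17, 3.48 and 3.27 in NJT-2 libraries.

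The DNA before the starts of these neighbours is printed because the genes moved together. The sequences are from RefSeq (GRCm38.p6, minus strand), up to 250 bases before the RefSeq start, without bases that lie inside the gene as deposited. Capitals mark matches, on either strand, to TATAAA (the TATA box), CCAAT (the NF-Y motif), GGGCGG (the GC box), ACGTG or GCGTG (the core that hypoxia-inducible factors bind), TGANTCA (the AP-1 motif) or the PPRE, a direct repeat of AGGTCA with a spacer of 1 base that PPARγ binds. Matches may overlap. The windows are chr10:76726169-76726294 for *Col6a1*, of 126 bases, and chr10:76623631-76623880 for *Col6a2*, of 250 bases.
Col6a1: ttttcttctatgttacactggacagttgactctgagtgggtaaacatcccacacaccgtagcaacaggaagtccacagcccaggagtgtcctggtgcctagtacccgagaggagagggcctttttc
Col6a2: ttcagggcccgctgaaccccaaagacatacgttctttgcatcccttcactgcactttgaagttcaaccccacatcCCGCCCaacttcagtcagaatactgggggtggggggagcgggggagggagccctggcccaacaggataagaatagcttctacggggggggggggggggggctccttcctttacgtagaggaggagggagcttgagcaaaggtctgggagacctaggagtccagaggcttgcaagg
The printed *Col6a1* stretch held no match and that of *Col6a2* held 1 GC box. The whole window of 250 bases before the RefSeq start of *Col6a1* held 1 TGANTCA, and a second RefSeq promoter of *Col6a2* held 3 GC boxes and 1 GCGTG. In windows of 250 bases, GGGCGG occurred in 59.85% of the 3731 promoters of the genes tested and in 63.79% of the 58 promoters found for 50 of the 68 matrix genes. TATAAA occurred in 6.379% and 8.621%, CCAAT in 35.03% and 32.76%, TGANTCA in 4.744% and 3.448%, and the PPRE in 0 of either. The PPRE as spelled here occurred in only 11 of 32851 promoters of all genes (0.0335%), so the 0 tells little about PPARγ binding.

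*Col5a3*, a minor chain of collagen V that joins fibrils of other collagens (chr9:20770050-20815067), was at 15.38, 11.99 and 12.22 FPKM in control and 49.01, 23.97 and 34.68 FPKM with NJT-2. All NJT-2 libraries lay above all control libraries. Its log2 fold change of 1.18 ± 0.42 (SE) had an adjusted p of 0.233 in edgeR and 0.0815 in DESeq2, and it was 1.79 (adjusted p = 0.00791, edgeR) without control replicate 1 and NJT-2 replicate 2. With an offset for transcript length, described below, it was 0.68 (adjusted p = 0.494, edgeR).

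*Col1a1*, a chain of the main fibril collagen and the collagen with the highest level, did not follow collagen VI. It was at 118.00, 510.29 and 691.41 FPKM in control and at 407.88, 376.10 and 380.88 FPKM with NJT-2. The NJT-2 libraries lay close together within the wide control range, and the log2 fold change was -0.21 ± 0.49 (SE; adjusted p = 0.819, edgeR). In FPKM, *Col1a1* stood at 1.65, 3.90 and 4.29 times *Col6a1* in control and at 1.16, 2.27 and 1.11 times in NJT-2 libraries. The other 2 tested collagens had log2 fold changes of -0.41 (*Col18a1*) and 0.25 (*Col11a2*), and *Col2a1* and *Col17a1* were below the filter.

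**Figure D2:**
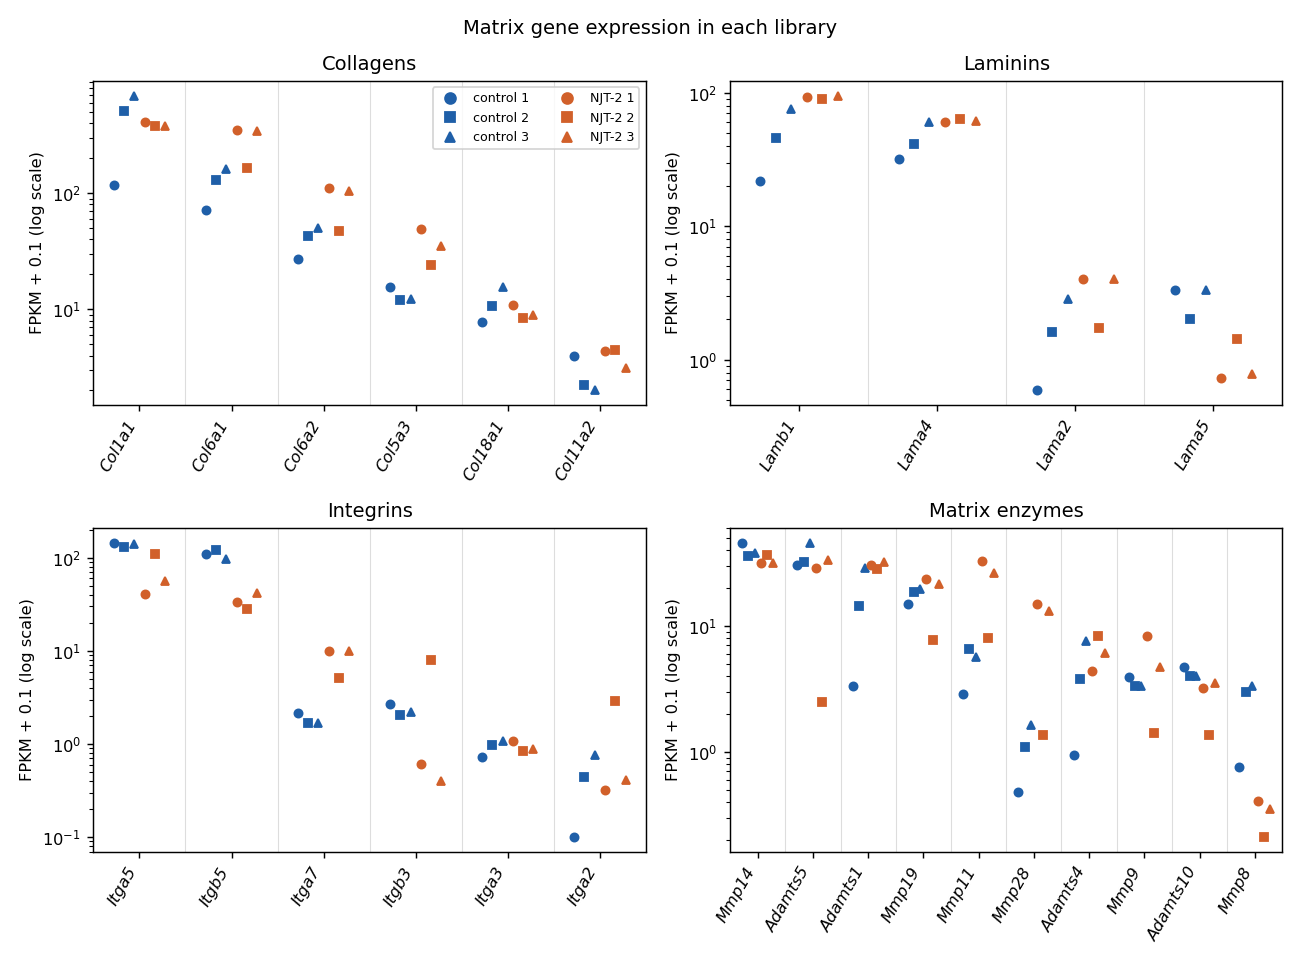
FPKM + 0.1 on log axes of each tested collagen, laminin, integrin and matrix enzyme, with 1 point per library (blue, control, and orange, NJT-2, with circle, square and triangle for replicates 1, 2 and 3). *Itgb5* lies at 95.90 FPKM or more in control and at 42.13 FPKM or less with NJT-2, whereas *Col1a1*, *Itgb3* and *Adamts5* spread widely within a group.

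Among the laminins, all NJT-2 libraries lay above all control libraries for *Lamb1* and *Lama4* and below them for *Lama5*, best known from epithelial basement membranes. Of the 4 tested, 3 had positive values and the median log2 fold change was 0.61. edgeR called 0, with 1 higher and 1 lower at an unadjusted p under 0.05, and DESeq2 called 0 higher and 1 lower.

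*Lamb1*, the beta chain of most laminins (chr12:31265234-31329644), was at 21.60, 45.39 and 75.17 FPKM in control and 92.41, 89.48 and 94.81 FPKM with NJT-2. *Lama4*, the alpha chain of laminins of fat and vessel walls (chr10:38965515-39110188), was at 31.91, 40.88 and 59.97 FPKM against 60.46, 63.93 and 61.48 FPKM. For both genes the NJT-2 libraries were nearly equal and above all control libraries, of which replicate 3 came closest. The log2 fold changes were 0.88 ± 0.38 and 0.34 ± 0.31 (SE), with adjusted p of 0.281 and 0.537 (edgeR). *Lama2*, the alpha chain of muscle basement membrane, had low levels of 0.49, 1.51 and 2.75 FPKM in control and 3.89, 1.64 and 3.94 FPKM with NJT-2, and the groups overlapped (0.93 ± 0.53, SE; adjusted p = 0.351, edgeR).

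*Lama5* (chr2:180176373-180225859) was at 3.23, 1.93 and 3.20 FPKM in control and at 0.63, 1.33 and 0.68 FPKM with NJT-2. The groups did not overlap, and NJT-2 replicate 2 was the highest of its group. Its log2 fold change was -1.88 ± 0.51 (SE), with an adjusted p of 0.159 in edgeR and 0.0175 in DESeq2. It was -1.96 (adjusted p = 0.0112, edgeR) without control replicate 1 and NJT-2 replicate 2. The remaining laminin, *Lama3*, was below the filter.

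Integrins, the receptors built of an alpha and a beta chain, went in both directions. Of the 6 tested, 3 were positive and 3 negative, with a median of 0.06 that became -1.06 without NJT-2 replicate 2. edgeR called 0, with 1 higher and 2 lower at an unadjusted p under 0.05, and DESeq2 called 1 higher and 1 lower.

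*Itgb5* (ENSMUSG00000022817, chr16:33829665-33949338) encodes the beta chain that pairs with integrin alpha V and binds vitronectin. It was at 108.57, 121.51 and 95.90 FPKM in control and at 33.11, 28.24 and 42.13 FPKM with NJT-2. No library came near the other group, and NJT-2 replicate 2 lay with the others. edgeR gave a log2 fold change of -1.88 ± 0.36 (SE), with an adjusted p of 0.0770, against 3.454e-05 in DESeq2, and it lay between -2.08 and -1.67 with any single library left out. The 250 bases before its RefSeq start (GRCm38.p6, plus strand, chr16:33829415-33829664) are shown because it was the most abundant of the genes that DESeq2 called lower, and held 3 GC boxes and 1 GCGTG.
Itgb5: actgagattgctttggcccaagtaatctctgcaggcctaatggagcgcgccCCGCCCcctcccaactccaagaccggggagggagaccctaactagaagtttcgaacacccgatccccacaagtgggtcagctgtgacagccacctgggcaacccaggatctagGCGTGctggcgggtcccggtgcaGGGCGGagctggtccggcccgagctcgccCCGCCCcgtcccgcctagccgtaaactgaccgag

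*Itga5*, the alpha chain of the fibronectin receptor (chr15:103344286-103366763), was at 144.79, 129.10 and 140.30 FPKM in control and at 41.00, 109.68 and 56.80 FPKM with NJT-2. The groups did not overlap, but NJT-2 replicate 2 was nearer to control than to replicates 1 and 3. The log2 fold change of -1.20 ± 0.49 (SE; adjusted p = 0.270, edgeR) was -1.77 without NJT-2 replicate 2 (adjusted p = 0.0944, edgeR), and -1.47 (adjusted p = 0.0129, edgeR) without control replicate 1 as well.

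*Itga7*, the alpha chain of a laminin receptor best known from muscle (chr10:128933818-128958282), was at 2.04, 1.59 and 1.57 FPKM in control and 9.87, 5.05 and 9.96 FPKM with NJT-2. Every NJT-2 library was above every control library. The log2 fold change was 1.99 ± 0.44 (SE), with an adjusted p of 0.103 in edgeR and 0.00102 in DESeq2. *Itgb3*, another beta chain that pairs with alpha V, was at 2.58, 1.93 and 2.12 FPKM in control and at 0.51, 7.95 and 0.30 FPKM with NJT-2. Replicates 1 and 3 lay below the control range and replicate 2 above it, so that the log2 fold change was 0.23 ± 1.15 (SE) with all libraries and -2.75 without NJT-2 replicate 2 (adjusted p = 0.0733, edgeR). *Itga2* and *Itga3* stayed at or below 2.82 FPKM in all libraries, and *Itgb4*, *Itgb7* and *Itgb8* were below the filter.

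Matrix enzymes were the class with the widest range, from *Mmp8* at -3.38 to *Mmp28* at 3.22 on the log2 scale. Of the 10 tested, 5 were positive and 5 negative, and the median was -0.0093. edgeR called 0, with 2 higher and 1 lower at an unadjusted p under 0.05, and DESeq2 called 2 higher and 1 lower.

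*Mmp11* (stromelysin 3, chr10:75923222-75936496) was at 2.77, 6.43 and 5.61 FPKM in control and at 32.80, 7.92 and 26.27 FPKM with NJT-2. *Mmp28* (epilysin, chr11:83440768-83463022) was at 0.38, 0.99 and 1.52 FPKM in control and at 14.78, 1.25 and 13.04 FPKM with NJT-2. Both proteases were high in replicates 1 and 3, while NJT-2 replicate 2 lay just above the control range for *Mmp11* and inside it for *Mmp28*. The log2 fold changes were 2.04 ± 0.51 and 3.22 ± 0.85 (SE), with adjusted p of 0.134 and 0.148 in edgeR and 0.00420 and 0.00152 in DESeq2. Without NJT-2 replicate 2 they were 2.43 and 3.73 (adjusted p = 0.0287 and 0.0279, edgeR), past the limits of the call. Exons of a gene on the opposite strand cover 5.58% of the exon bases of *Mmp11* and 12.03% of those of *Mmp28*, and whether counting used the strand was not given in the sources used here.

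*Mmp8*, the neutrophil collagenase (chr9:7558456-7568485), was at 0.66, 2.90 and 3.22 FPKM in control and at 0.31, 0.11 and 0.25 FPKM with NJT-2. All NJT-2 libraries were below all control libraries, at low levels. On the log2 scale the fold change was -3.38 ± 0.72 (SE), with an adjusted p of 0.1003 in edgeR and 1.708e-04 in DESeq2.

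The 4 enzymes with the highest mean level were called by neither edgeR nor DESeq2 with all libraries. *Mmp14*, the membrane-bound MMP that cuts fibrillar collagen, was even, at 35.79 to 45.12 FPKM in control and 31.32 to 36.34 FPKM with NJT-2 (-0.50 ± 0.38, SE; adjusted p = 0.448, edgeR). The proteoglycan-cutting proteases *Adamts1* and *Adamts5* are neighbours on chromosome 16, 53060 bases apart. *Adamts1* was at 3.22, 14.22 and 28.61 FPKM in control and 30.50, 28.02 and 32.10 FPKM with NJT-2, and control replicate 3 lay just above NJT-2 replicate 2 (0.96 ± 0.57, SE; adjusted p = 0.365, edgeR). With voom quality weights it was 1.07 (adjusted p = 6.248e-04, limma), past the limits of the call. *Adamts5* was at 30.16, 32.12 and 45.77 FPKM in control and 29.03, 2.38 and 33.49 FPKM with NJT-2, and its log2 fold change of -0.95 ± 0.78 (SE) was -0.42 without NJT-2 replicate 2 (adjusted p = 0.446, edgeR). In that library *Adamts1* stood at 28.02 FPKM and its neighbour at 2.38 FPKM. *Mmp19* was at 14.79 to 19.44 FPKM in control and 7.62 to 23.59 FPKM with NJT-2, and an opposite-strand gene covers 22.33% of its exon bases. The other 3 tested enzymes, *Adamts4*, *Adamts10* and *Mmp9*, had log2 fold changes of 0.63, -0.93 and 0.19, and 3 enzymes were below the filter.

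Among the structural glycoproteins, *Ccdc80* and *Vtn* were the genes that DESeq2 called, both higher, and edgeR called 0 of the 10 tested, with 2 higher and 0 lower at an unadjusted p under 0.05. The class had 4 positive and 6 negative values and a median of -0.19.

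*Ccdc80*, a secreted protein that binds matrix and is made by fat tissue (chr16:45093402-45128077), was at 21.51, 31.76 and 35.82 FPKM in control and at 161.01, 32.40 and 134.41 FPKM with NJT-2. Replicates 1 and 3 were several times the highest control library and replicate 2 was within the control range. Its log2 fold change was 1.70 ± 0.55 (SE), with an adjusted p of 0.2005 in edgeR and 0.0292 in DESeq2, and it was 2.12 without NJT-2 replicate 2 (adjusted p = 0.0275, edgeR). *Vtn*, which encodes vitronectin, a ligand of the integrins with *Itgb5* or *Itgb3* (chr11:78499091-78502324), was at 0.52, 0.33 and 0.62 FPKM in control and 3.01, 1.9 and 2.39 FPKM with NJT-2. *Vtn* was thus higher and *Itgb5* lower in every NJT-2 library than in any control library, though edgeR called neither. *Itgb3* kept no common direction, and a link between these genes was not tested. For *Vtn* the log2 fold change was 2.05 ± 0.58 (SE), with an adjusted p of 0.167 in edgeR and 0.0139 in DESeq2.

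*Nid1* (nidogen 1, which links laminin to collagen IV) was at 5.09, 55.65 and 124.93 FPKM in control and 118.67, 214.74 and 108.48 FPKM with NJT-2 (1.30 ± 0.85, SE; adjusted p = 0.395, edgeR). *Thbs2* (thrombospondin 2) was at 63.53, 152.55 and 221.54 FPKM in control and 89.27, 109.49 and 111.90 FPKM with NJT-2 (-0.56 ± 0.39, SE; adjusted p = 0.415, edgeR). *Fbln1* (fibulin 1) was at 23.56, 40.59 and 40.96 FPKM and at 44.35, 24.28 and 39.87 FPKM (-0.10 ± 0.32, SE; adjusted p = 0.861, edgeR). In these 3 abundant genes the groups overlapped, and control replicate 1 was the lowest library in FPKM. In normalized log2 CPM minus the control mean, control replicate 1 was the lowest library only for *Nid1* (-2.25). There NJT-2 replicate 1 was lowest for *Thbs2* (-0.74) and NJT-2 replicate 2 for *Fbln1* (-0.57). The other 5 tested glycoproteins had log2 fold changes from -0.85 (*Fbln5*) to 0.67 (*Pxdn*). Without control replicate 1 and NJT-2 replicate 2, *Fbln5*, a protein of elastic fibres, was called lower at -1.50 (adjusted p = 0.00791, edgeR).

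The syndecans, heparan sulfate proteoglycans that span the cell membrane, were the proteoglycans tested. *Sdc1* (ENSMUSG00000020592, chr12:8771323-8793715) was at 54.57, 88.13 and 80.28 FPKM in control and at 34.90, 27.03 and 45.39 FPKM with NJT-2. The groups did not overlap. The log2 fold change was -1.22 ± 0.31 (SE), with an adjusted p of 0.137 in edgeR and 0.00381 in DESeq2, and it lay between -1.39 and -1.09 with any single library left out. The bases before its RefSeq start (GRCm38.p6, plus strand, chr12:8771146-8771322, 177 bases) are shown beside those of *Itgb5* as another receptor that DESeq2 called lower, and they held 2 GC boxes, 1 CCAAT and 1 GCGTG.
Sdc1: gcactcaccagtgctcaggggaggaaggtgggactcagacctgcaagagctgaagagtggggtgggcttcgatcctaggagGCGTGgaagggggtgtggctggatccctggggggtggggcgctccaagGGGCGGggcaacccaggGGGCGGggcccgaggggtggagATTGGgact
*Sdc4* had the highest mean control level of the receptors, at 409.44, 288.37 and 235.69 FPKM, and stood at 77.23, 330.66 and 104.90 FPKM with NJT-2. Replicates 1 and 3 were below the control range and replicate 2 inside it. The log2 fold change of -1.11 ± 0.68 (SE; adjusted p = 0.381, edgeR) was -2.11 without NJT-2 replicate 2 (adjusted p = 0.124, edgeR), and -1.53 (adjusted p = 0.0136, edgeR) without control replicate 1 as well. *Cd44*, *Hmmr* and *App*, the other receptors, had log2 fold changes of -0.62, -0.57 and 0.31, with 0 called by either tool and 0 at an unadjusted p under 0.05 in either direction. Without control replicate 1 and NJT-2 replicate 2, *Cd44*, the hyaluronan receptor, was called lower at -1.21 (adjusted p = 0.0359, edgeR).

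The other members, mostly enzymes and regulators inside the cell, held the largest difference. *Ero1l* (ENSMUSG00000021831, chr14:45283087-45318572), the oxidase of the endoplasmic reticulum that drives disulfide formation in secreted proteins and is known to be induced by low oxygen, was at 17.39, 29.57 and 38.77 FPKM in control and at 263.06, 777.19 and 281.72 FPKM with NJT-2. Every NJT-2 library was far above every control library, with replicate 2 the highest. *Ero1l* rose with a log2 fold change of 3.86 ± 0.58 (SE), 14.6-fold, with an adjusted p of 0.0408 in edgeR and 1.784e-10 in DESeq2. With 1 library left out, the log2 fold change was 3.09 to 4.15 and the adjusted p 0.0165 to 0.3 (edgeR), and the call was lost in 5 of the 6 cases, all except without NJT-2 replicate 2. The 250 bases before its RefSeq start (GRCm38.p6, minus strand, chr14:45318573-45318822) are shown because it was the only matrix gene called by edgeR, and they held 5 GC boxes, 1 ACGTG and 2 GCGTG.
Ero1l: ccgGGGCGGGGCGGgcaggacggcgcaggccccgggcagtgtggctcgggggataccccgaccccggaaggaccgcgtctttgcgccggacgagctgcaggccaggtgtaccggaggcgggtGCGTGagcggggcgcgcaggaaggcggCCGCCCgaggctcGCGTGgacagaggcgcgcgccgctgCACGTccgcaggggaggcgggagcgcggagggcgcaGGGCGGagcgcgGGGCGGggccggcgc
ACGTG occurred in 22.03% of the promoter windows of all genes tested and in 15.52% of those of the matrix genes, and GCGTG in 45.48% and 39.66%.

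*Gfod2*, which encodes a protein of oxidoreductase type (chr8:105713854-105758664), was even within groups, at 4.43, 3.92 and 3.27 FPKM in control and 1.8, 1.59 and 1.74 FPKM with NJT-2. The groups did not overlap, and the log2 fold change was -1.43 ± 0.40 (SE), with an adjusted p of 0.166 in edgeR and 0.0286 in DESeq2. The 9 tested members of this class comprised 6 with positive and 3 with negative values, with a median of 0.82. The remaining 7 ranged from -0.99 (*Prdx4*, another disulfide enzyme) to 1.53 (*Serac1*). Among them *Nfkb2*, a subunit of NF-kappa B, was -0.17 with all libraries and was called lower at -1.17 without control replicate 1 and NJT-2 replicate 2 (adjusted p = 0.0109, edgeR).

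**Figure D3:**
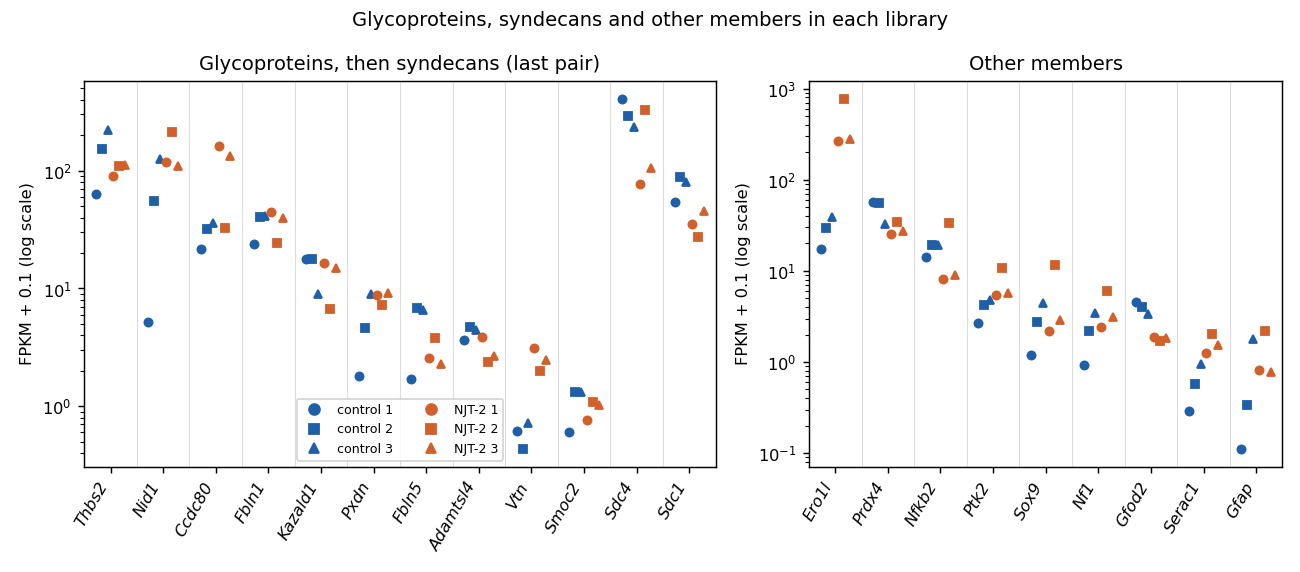
FPKM + 0.1 on log axes of each tested structural glycoprotein, the 2 tested syndecans and the other members, with 1 point per library (blue, control, and orange, NJT-2, with circle, square and triangle for replicates 1, 2 and 3). *Ero1l* lies at 38.77 FPKM or less in control and at 263.06 FPKM or more with NJT-2, and *Gfod2*, *Vtn* and *Sdc1* also separate the groups.

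The classes differed in how NJT-2 replicate 2 sat beside replicates 1 and 3. As a median over class members of log2 CPM minus the control mean, integrins stood at -0.91 and -0.88 in replicates 1 and 3 and at 0.63 in replicate 2. Matrix enzymes stood at 0.29 and 0.12 against -0.75, and the other members at 0.15 and 0.41 against 1.61. Laminins stood at 0.61, 0.38 and 0.61 in replicates 1 to 3, although *Lama2* was lower and *Lama5* higher in replicate 2 than in the others, and collagens at 0.93, 0.32 and 0.60. *Itgb5*, *Mmp8*, *Vtn* and *Ero1l* kept one direction in all 3 NJT-2 libraries, whereas for *Ccdc80* and *Mmp28* replicate 2 was within the control range, and for *Itgb3* and *Adamts5* it lay on its own. In FPKM, NJT-2 replicate 2 was within the control range for 19 of the 50 genes, and the share of all genes was not worked out here.

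**Figure D4:**
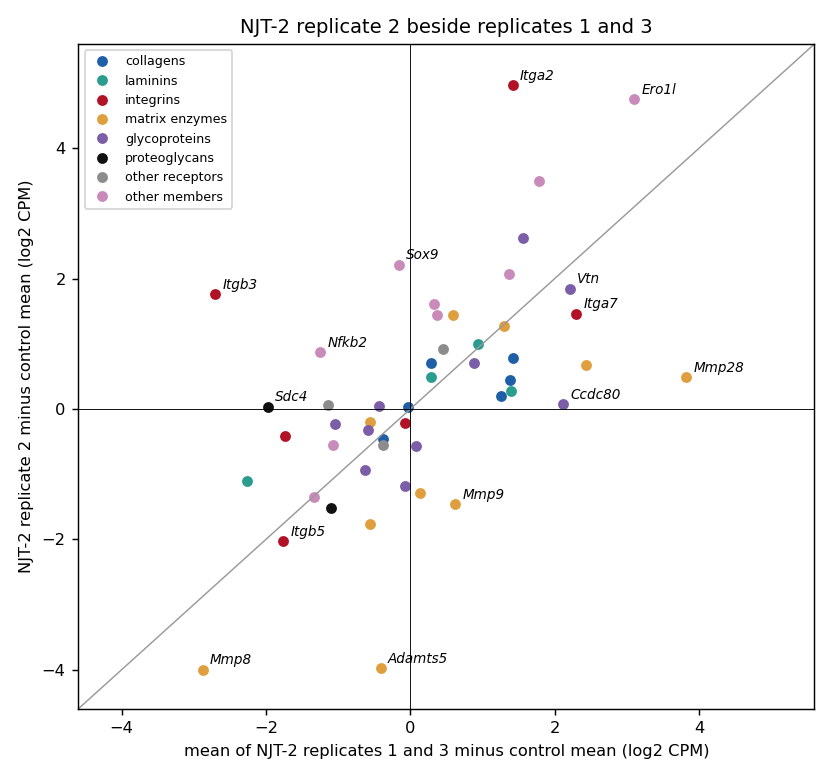
For each tested matrix gene, the difference from the control mean (log2 CPM) in NJT-2 replicate 2 (vertical) against the mean of NJT-2 replicates 1 and 3 (horizontal), coloured by class, with the line of equality. Genes such as *Itgb5*, *Mmp8*, *Vtn* and *Ero1l* lie in the same quadrant on both axes, and *Itgb3*, with 7.95 FPKM in replicate 2 against 0.51 and 0.30 FPKM, lies in opposite ones.

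Transcript length moved with the libraries. The longest transcript of the matrix genes had a median of 4370.5 bases, and of 5762.5 for collagens and 7830 for laminins, beside 3307 over all genes tested. Across genes, the log2 ratio of a library to the mean of all libraries had a Spearman correlation with length of -0.424, -0.426 and 0.398 in the control and 0.177, 0.320 and 0.249 in the NJT-2 libraries, where genes are not independent replicates. With an offset for length in edgeR, the median of the matrix genes went from 0.21 to -0.14, that of collagens from 0.61 to 0.17 and that of laminins from 0.61 to 0.25. At an unadjusted p under 0.05, 8 matrix genes were then higher and 11 lower, beside 333 higher and 355 lower of the 3705 genes tested. *Ero1l* was still called (log2 fold change 3.63, adjusted p = 0.0337, edgeR), and *Itgb5* was at -1.93 (adjusted p = 0.0582, edgeR).

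**Figure D5:**
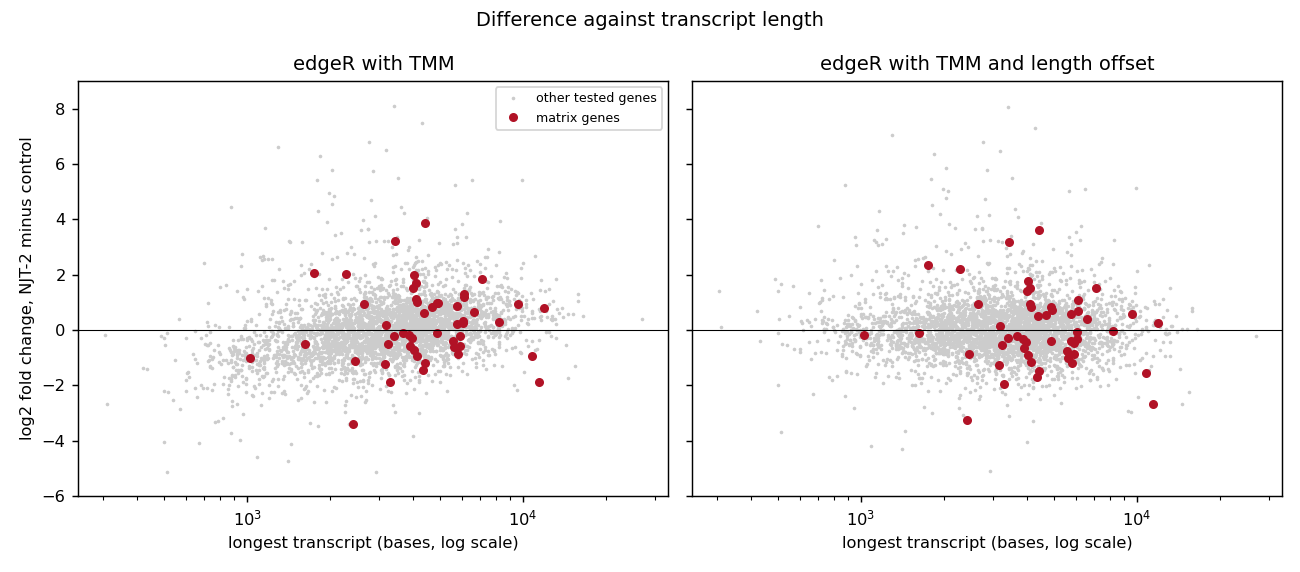
Log2 fold change of NJT-2 minus control from edgeR against the longest transcript of each gene (bases, log axis), without (left) and with (right) an offset for length, for the matrix genes (red) and the other tested genes (grey). The grey cloud slopes upward on the left and is level on the right, and the median of the matrix genes goes from 0.21 to -0.14.

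Of the 18 matrix genes under the filter, 15 had at most 100 counts in every library and *Itih1* had 0 counts in all, which allows up to 3 counts per library. A pair with 30 or more counts separated the groups in FPKM. The share of all genes under the filter that did so was not worked out here. *Papln* (papilin) had 0, 0 and 8 counts in control and 48, 24 and 18 with NJT-2. *Vit* (vitrin) had 71, 70 and 78 counts in control and 51, 52 and 52 with NJT-2. These counts are not scaled for the unequal library totals. In FPKM the gap for *Vit* was narrow, at 0.38, 0.24 and 0.34 in control and 0.22, 0.23 and 0.23 with NJT-2. These differences rest on few reads, and the genes were outside the main test.

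A wider list of 96 matrix genes was read beside the members. It shared 13 with them, and 31 of the rest were in the table part analysed and tested. Among these were inhibitors of MMPs, collagen-modifying enzymes and fibril-binding proteins. Of these 31, 12 had positive and 19 negative values, with a median of -0.20. edgeR called 0, with 3 higher (beside 8.04% of all genes) and 8 lower (beside 9.72%) at an unadjusted p under 0.05. DESeq2 called 0 higher (beside 4.4%) and 4 lower (beside 3.4%), which were *Timp1*, *Timp2*, *Dcn* and *Loxl3*. *Timp2*, an inhibitor of MMPs, was at 329.89, 340.14 and 336.83 FPKM in control and 117.85, 83.16 and 132.06 FPKM with NJT-2 (-1.82 ± 0.36, SE; adjusted p = 0.0853 in edgeR and 3e-05 in DESeq2). *Timp1*, another such inhibitor, was at 8984.12, 4173.66 and 2128.05 FPKM in control and 427.96, 1805.28 and 638.86 FPKM with NJT-2 (-2.76 ± 0.88, SE; adjusted p = 0.2003 in edgeR and 0.0113 in DESeq2). *Timp3*, a further inhibitor, was at 1.38, 4.13 and 7.3 FPKM in control and 3.03, 17.31 and 3.96 FPKM with NJT-2 (0.93 ± 0.77, SE; adjusted p = 0.493, edgeR). *Timp1*, *Timp2* and the protease *Mmp8* were below the control range in every NJT-2 library, while *Timp3* overlapped between the groups and *Mmp11* was above the control range in every one. *Dcn* (decorin, a fibril-binding proteoglycan) was at 29.82, 179.88 and 205.75 FPKM in control and 41.68, 46.33 and 28.04 FPKM with NJT-2, and control replicate 1 lay with the NJT-2 libraries.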

How the data were processed

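RNA from the 3 control and 3 NJT-2 libraries was sequenced by the study. Per the labels, the submitters' processing notes list cutadapt 1.9, HISAT2 2.2.1, StringTie 2.1.6 and the genome GRCm38. The authors deposited raw read counts per gene, which are not normalized. Beside the counts they deposited FPKM values, the counts per gene length and library total. How reads were assigned to genes, on which annotation, and whether by strand, is not given in the sources used here; the library kit marks strand. The table part analysed had 4865 lines, 4864 of them complete.

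Counts were tested with edgeR 4.0.16 in R 4.3.3 (quasi-likelihood test, TMM factors from analysed genes only) on the 3705 genes whose FPKM averaged 0.5 or more. A call required an adjusted p under 0.05 (Benjamini-Hochberg over all genes tested) and a log2 fold change beyond 1 in size. The standard error was the fold change divided by the square root of F. Sample titles gave the groups and the replicate numbers. The method was tested on simulated counts, in which no library stood apart and no trend with length was set. That test therefore says nothing about these features of the data. Alternatives were DESeq2 1.42.0, limma 3.58.1 on log2 FPKM, voom with quality weights, other factors, filters and totals, a length offset from the longest GENCODE M21 transcript, a replicate block, and leaving out libraries. A chi-square test over genes separated every pair of libraries of a group beyond counting error. Intervals are not given for counts, since the spread between libraries was far above counting error.

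The genes named with values were the 4 tested members with the highest mean FPKM in each of the first 6 classes, every gene called by edgeR, the 6 higher and 6 lower with the smallest p under 0.05, and genes under the filter with 30 or more counts whose groups did not overlap. Of other members, only fold changes at the ends of a range or in classes of few genes are given. The members, classes and lists were chosen with earlier results of these data known.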

Additional observations from a re-analysis of the deposited data

How the results depend on the processing

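The number of matrix genes called, 1 in all libraries, was 12 with DESeq2, 25 with voom quality weights, 20 without control replicate 1 and NJT-2 replicate 2, and 0 to 4 with 1 library left out. In the last case 0 to 56 of all 3705 genes tested were called higher and 0 to 19 lower. The 11 genes higher at an unadjusted p under 0.05 became 20 with voom and 5 to 13 with 1 library left out. The 7 lower became 11 with the length offset, 16 with voom, 14 without both libraries, and 5 to 11 with 1 left out. Of all 3705 genes tested, 1132 were higher and 1117 lower with voom at this limit. With 1 library left out, 157 to 449 of all genes were higher and 169 to 600 lower. The length offset gave 355 lower and leaving out both libraries gave 632. Genes without overlap were 10 to 21 higher and 8 to 14 lower with 1 library left out. Leaving out a library can only add to such counts, for any set of genes. The shares of all genes were not worked out here, so the rise is no result about the matrix genes. The median log2 fold change of the matrix genes, 0.21, was 0.35 with implied whole-library totals, 0.070 with no filter, -0.10 with at least 10 counts in every library, -0.14 with the length offset, -0.017 with voom, -0.18 without both libraries, and 0.0088 to 0.29 with 1 left out. Collagens (0.61) had 0.17 with the length offset, 0.96 with voom, 1.03 without both libraries, and 0.48 to 0.92. Laminins (0.61) had 0.31 with no filter, 0.25 with the length offset, and 0.42 to 0.84. Integrins (0.06) had -0.84 with voom, -1.20 without both libraries, and -1.06 to 0.36. Matrix enzymes (-0.0093) had -0.46 to 0.22. The cause was not tested. The median of all genes, 0.02, was 0.16 with the implied totals and 0.14 and 0.17 with limma on log2 FPKM.

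No pairing by replicate number was seen, as deviations of same-numbered libraries correlated at 0.18, 0.032 and -0.21. With 3 libraries a group and 1 of them standing apart in each, these values cannot exclude a pairing. With the replicate block, 1 matrix gene was called, and the medians were -0.044 for all matrix genes and -0.71 for integrins.

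Under all 19 alternatives, 34 of the 50 matrix genes tested kept their direction. Of the genes named by the rule, 5 changed sign. *Col1a1* was 0.16 with limma at either pseudocount and -0.63 to 0.16 with 1 library left out, and *Lama4* -0.060 with the length offset. *Itgb3* was -0.30 and -0.87 with limma, -0.40 with the length offset, -2.40 with voom, -1.57 with the replicate block, -2.33 without both libraries and -2.75 to 0.77 with 1 left out. *Mmp19* was 0.21 with voom, 0.24 without both libraries and -0.47 to 0.13 with 1 left out. *Fbln1* was 0.046 with implied totals, 0.043 and 0.044 with limma, 0.0092 with voom, 0.044 without both libraries and -0.26 to 0.086 with 1 left out.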
